A study of Mus musculus with 6 samples.

Results

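The NRF2 antioxidant genes and metallothioneins described here are 10 genes: Nfe2l2, Keap1, Hmox1, Nqo1, Gclc, Gclm, Txnrd1, Srxn1, Mt1 and Mt2. They were chosen by symbol, with earlier results of these data known, so their shares beside those of all genes are descriptions. All 10 were among the 17419 genes of the deposited table and among the 13264 genes that passed the filter on low counts. Bulk RNA sequencing was done on fibroblasts from the enthesis, the place where tendon is anchored to bone, of SKG mice, which carry a Zap70 mutation and are prone to autoimmune arthritis. Of the 6 samples, 3 are labelled diseased (titles with NTS) and 3 un-diseased (titles with UN), numbered 1 to 3 in each group. The labels do not spell out NTS or UN, and they give no age, sex, inducing agent or time. Nor do they state whether the 3 samples of each kind are different mice or repeats of one culture. Each p-value is therefore relative to the scatter of these 6 samples, part or all of which could be technical.

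NRF2, encoded by Nfe2l2, is a transcription factor that is held in the cytoplasm and sent for degradation by KEAP1. Oxidants and electrophiles modify cysteines of KEAP1, NRF2 then builds up, pairs with a small MAF protein and binds antioxidant response elements in genes that make glutathione, reduce thioredoxin, break down haem and detoxify quinones. Metallothioneins are small cysteine-rich proteins that bind zinc and copper. They are switched on mainly by the zinc sensor MTF1 at metal response elements, and respond to oxidative stress and glucocorticoids as well.

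Transcripts of 9 of the 10 genes were lower in diseased than in un-diseased samples, and Keap1, the inhibitor, was higher. The median log2 fold change (diseased minus un-diseased) of the 10 was -0.79, against 0.02 over all tested genes. In the comparison of the groups alone, only Gclm passed (edgeR's quasi-likelihood test, Benjamini-Hochberg adjusted p under 0.05 over all tested genes), and 3.73% of all tested genes passed there, 2.13% lower and 1.61% higher (2.17% and 3.14% with upper-quartile factors). At an unadjusted edgeR p under 0.05 there were 7 of the 10, against 27.8% of all tested genes, a share to set beside each unadjusted count given for the other lists. When the replicate number was added as a block, 7 of the 10 were called lower (Nfe2l2, Gclc, Gclm, Txnrd1, Srxn1, Mt1 and Mt2) and 0 higher, where 23.9% of all tested genes passed, 13.3% lower and 10.5% higher. DESeq2 without the block called 6 lower and 0 higher, against 6.65% and 4.79% of all tested genes. The 3 that did not pass with the block were Keap1, Hmox1 and Nqo1. The labels do not state that samples of equal number belong together.

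Promoter windows from RefSeq (build GRCm38.p6, the 250 bases before an annotated start) were found for 8 of the 10 genes, 10 windows in all. They were searched on both strands for the antioxidant response element core TGACNNNGC, for the NF-E2-type element TGAGTCAGC, which NRF2 and small MAF proteins also bind, and for 2 forms of the metal response element core, TGCACNC and TGCGCNC. Over all 32851 windows of the same length, 10.2% held TGACNNNGC, 0.347% held TGAGTCAGC and 21.4% held either metal response core. The windows of Srxn1, which had the largest difference of the 10, of Mt2, the most abundant per length of transcript, and of Nfe2l2 itself are shown, with matches in capitals, written along the strand of the gene.
Srxn1 (chr2:152105274-152105523, plus strand): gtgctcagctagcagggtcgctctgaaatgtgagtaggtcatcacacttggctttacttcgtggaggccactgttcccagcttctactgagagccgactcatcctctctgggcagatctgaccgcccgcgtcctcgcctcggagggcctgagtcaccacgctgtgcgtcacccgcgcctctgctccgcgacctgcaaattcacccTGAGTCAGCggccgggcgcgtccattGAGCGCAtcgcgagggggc
Mt2 (chr8:94172368-94172617, plus strand): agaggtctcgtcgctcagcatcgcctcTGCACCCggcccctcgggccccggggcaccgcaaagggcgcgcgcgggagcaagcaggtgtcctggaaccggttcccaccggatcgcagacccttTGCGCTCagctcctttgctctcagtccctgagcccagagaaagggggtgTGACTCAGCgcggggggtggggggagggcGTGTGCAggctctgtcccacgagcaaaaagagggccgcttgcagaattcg
Nfe2l2 (chr2:75704664-75704913, minus strand): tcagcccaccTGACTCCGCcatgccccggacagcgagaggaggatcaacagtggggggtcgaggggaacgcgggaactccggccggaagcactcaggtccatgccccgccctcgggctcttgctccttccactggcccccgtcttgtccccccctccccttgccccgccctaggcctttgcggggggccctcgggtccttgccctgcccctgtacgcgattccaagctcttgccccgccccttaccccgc
Srxn1 held the NF-E2-type element, starting 45 bases before the annotated start, and 1 metal response core. Mt2 held 1 antioxidant response core, starting 79 bases before the start, and 3 metal response cores. Nfe2l2 held 1 antioxidant response core near the far end of its window, 240 bases before the start. Among the others, the Gclm window held 1 antioxidant response core and 2 metal response cores, of which 1 overlaps it. Of the 3 Txnrd1 windows, 1 held 1 antioxidant response core (82858956 to 82859205). That window lies inside the Txnrd1 span given below, as does another without a match (82860091 to 82860340). The Mt1 window held 1 metal response core. The windows of Gclm (122245307 to 122245556) and Mt1 (94178839 to 94179088) run into the gene spans given below. They therefore cover only part of the 250 bases before the outermost start, and their match counts are not like for like with those of Mt2. The windows of Keap1 and Nqo1 held no match. A match is a stretch of letters and not a measured binding site, and elements outside these windows were not searched.

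Levels are given as CPM, the count of a gene as a share of its library's TMM-scaled total. The plot of the 10 genes by sample shows each value with the sample's replicate number.

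**Figure D1:**
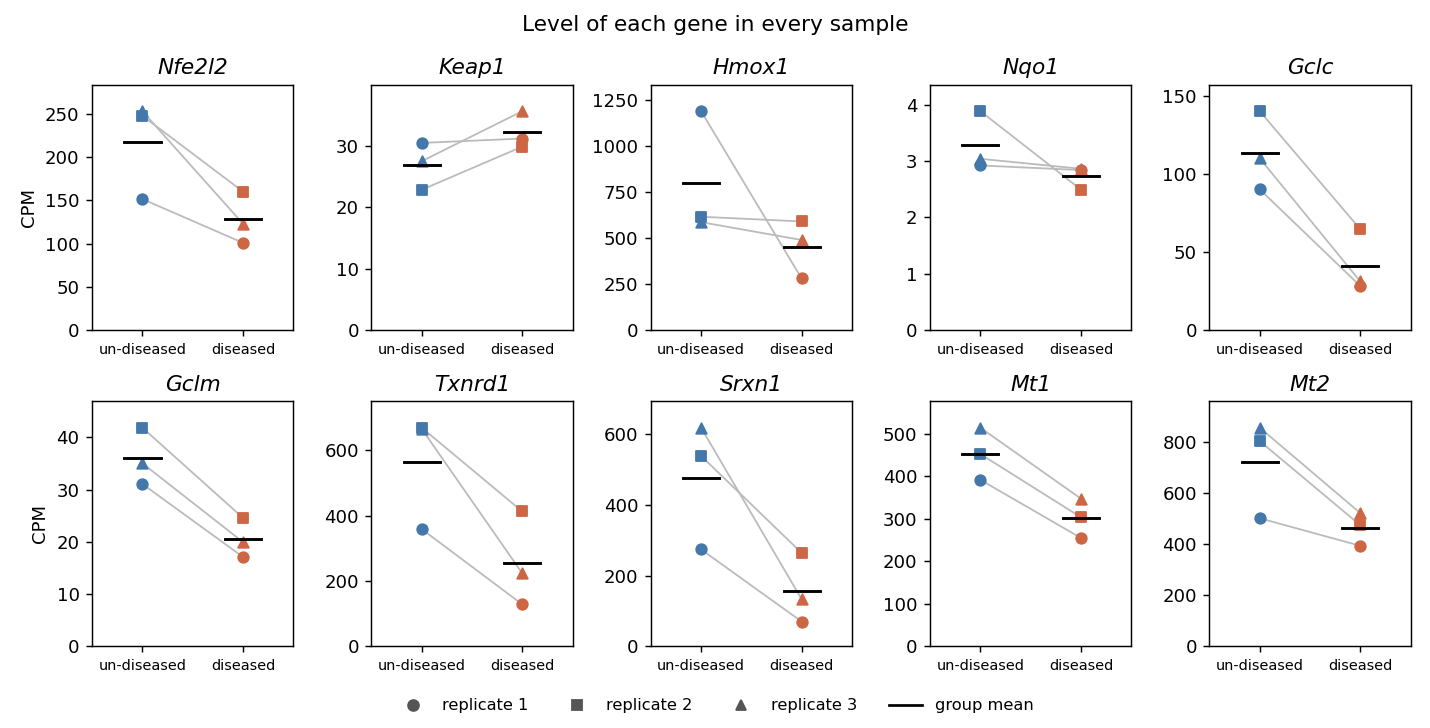
CPM of each of the 10 genes in the 3 un-diseased (blue) and 3 diseased (orange) samples; marker shapes give the replicate number, grey lines join equal numbers and black bars are group means. Every line falls except those of Keap1, and Hmox1 falls steeply in replicate 1 alone, from 1190 to 280 CPM.

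Among the regulators, the un-diseased replicates 1, 2 and 3 held Nfe2l2 (gene 18024, chromosome 2, 75675513 to 75704663) at 151, 248 and 253 CPM, and the diseased ones at 101, 160.1 and 123 CPM. The groups overlapped, because diseased replicate 2 was above un-diseased replicate 1. Its mean was 128 ± 30.0 CPM with disease and 218 ± 57.3 CPM without it (SD, n = 3 each), a log2 fold change of -0.77 (SE 0.24, edgeR adjusted p = 0.11). With the replicate block the fold change was -0.75 (SE 0.12, edgeR adjusted p = 0.00518). Keap1 (gene 50868, chromosome 9, 21229730 to 21239332), the adaptor that targets NRF2 for degradation, had 30.5, 22.9 and 27.5 CPM in un-diseased and 31.2, 29.9 and 35.7 CPM in diseased replicates 1, 2 and 3. The Keap1 groups also overlapped, and its log2 fold change of 0.26 (SE 0.13) passed neither without the block (edgeR adjusted p = 0.248) nor with it (0.118).

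The pair of genes for glutathione synthesis gave the clearest separation. Gclc (gene 14629, chromosome 9, 77754535 to 77794489) encodes the catalytic subunit of glutamate-cysteine ligase, the rate-limiting enzyme of glutathione synthesis. It had 90.01, 140.1 and 109.9 CPM in un-diseased and 28.1, 64.5 and 31.1 CPM in diseased replicates 1, 2 and 3, with no overlap. Its log2 fold change was -1.46 (SE 0.33), or 2.75 times higher in un-diseased samples, with an edgeR adjusted p of 0.0554, and -1.53 with the block (edgeR adjusted p = 0.00115). Gclm (gene 14630, chromosome 3, 122245487 to 122267215), the modifier subunit of the same enzyme, fell from 35.97 ± 5.44 to 20.6 ± 3.77 CPM (SD, n = 3 each). Un-diseased replicates 1, 2 and 3 had 31.1, 41.8 and 35.0 CPM, and diseased ones 17.1, 24.6 and 19.96 CPM. The change of -0.81 on the log2 scale (SE 0.17) passed with an edgeR adjusted p of 0.0456, close to the threshold. It no longer passed without un-diseased replicate 2 (edgeR adjusted p = 0.117) or 3 (0.115), or without diseased replicate 1 (0.1), 2 (0.0515) or 3 (0.18).

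The ratio of Gclc to Gclm CPM was 2.90, 3.35 and 3.14 in un-diseased replicates 1, 2 and 3 and 1.643, 2.62 and 1.56 in diseased ones, so the groups did not overlap. The exact two-sided permutation test of this ratio gave p = 0.1, the smallest that 3 against 3 samples allow, and 0.2 after adjustment over the 2 ratios tested.

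Txnrd1 and Srxn1 act in thiol repair, Txnrd1 as the cytosolic reductase that recharges thioredoxin and Srxn1 as sulfiredoxin, which restores over-oxidised peroxiredoxins. Srxn1 (gene 76650, chromosome 2, 152105524 to 152111376) had 274, 537 and 617 CPM in un-diseased and 70.3, 264 and 133 CPM in diseased replicates 1, 2 and 3. The groups were separate only by the small gap between diseased replicate 2 and un-diseased replicate 1. The log2 fold change was -1.61 (SE 0.49, edgeR adjusted p = 0.103), or 3.06 times higher in un-diseased samples, and -1.73 with the block (SE 0.21, edgeR adjusted p = 0.00248). Txnrd1 (gene 50493, chromosome 10, 82833951 to 82897724) had 359, 669 and 665 CPM in un-diseased and 129, 413 and 224 CPM in diseased replicates, in the same order. Here diseased replicate 2 lay above un-diseased replicate 1, so the groups overlapped. Its log2 fold change was -1.15 (SE 0.43, edgeR adjusted p = 0.142), and -1.25 with the block (SE 0.18, edgeR adjusted p = 0.00382).

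Nfe2l2, Gclc, Gclm, Txnrd1 and Srxn1 ordered the diseased samples alike, with replicate 2 highest, replicate 3 next and replicate 1 lowest. Un-diseased replicate 1 was the lowest of its group for all 5. Both samples numbered 1 were therefore low. The groups overlapped for Nfe2l2 and Txnrd1 and nearly met for Srxn1, while those of Gclc and Gclm were apart, and the difference within each number was negative for all 5, as the plot of differences by replicate number shows. For Srxn1 these log2 differences were -1.96, -1.03 and -2.21 in replicates 1, 2 and 3, for Gclc -1.67, -1.12 and -1.82, and for Gclm -0.86, -0.76 and -0.81. The Gclm differences were the most even of these 5 genes, and replicate 2 gave the smallest difference for Gclc, Gclm, Txnrd1 and Srxn1.

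**Figure D2:**
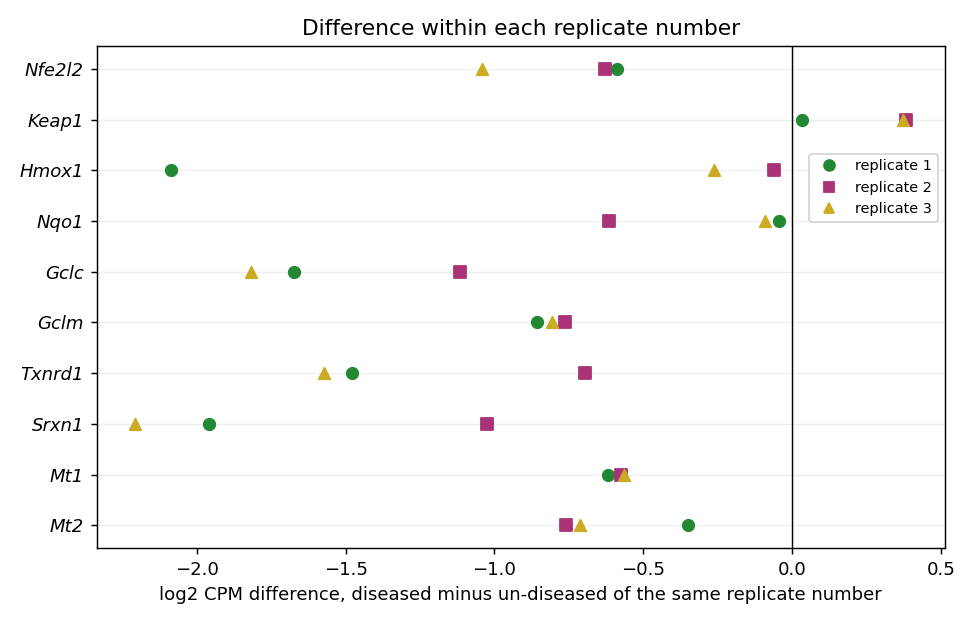
Difference in log2 CPM (prior count 2) between the diseased and the un-diseased sample of the same replicate number, for each of the 10 genes; markers give the number. All 3 points lie below 0 for 9 genes and above 0 for Keap1; the Hmox1 points range from -2.09 to -0.06.

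Hmox1 and Nqo1, often used as readouts of NRF2 activity, were less clear. Hmox1 (gene 15368, chromosome 8, 75093618 to 75100593) encodes haem oxygenase 1, which degrades haem to biliverdin, iron and carbon monoxide. Its CPM was 1190, 616 and 586 in un-diseased and 280, 590 and 489 in diseased replicates 1, 2 and 3. A single un-diseased sample stood far above the rest and a single diseased sample far below, both of them replicate 1, while the other 4 samples lay close together. The log2 fold change was -0.82 (SE 0.36, edgeR adjusted p = 0.186), and -0.78 with the block (edgeR adjusted p = 0.14). Without un-diseased replicate 1 it was -0.42 (edgeR adjusted p = 0.346), without diseased replicate 1 it was -0.56 (0.367), and with the block and without both samples numbered 1 it was -0.18 (0.44). Without diseased replicate 2 it was -1.05 (edgeR adjusted p = 0.137). With the block and without both samples numbered 2 it was -1.18 and passed (edgeR adjusted p = 0.0271). Nqo1 (gene 18104, chromosome 8, 107388225 to 107403205), a quinone reductase, was scarce, with 49 to 62 counts in un-diseased and 40 to 58 in diseased samples. Its levels were 2.92, 3.88 and 3.04 CPM in un-diseased and 2.84, 2.49 and 2.86 CPM in diseased replicates 1, 2 and 3. The Nqo1 groups did not overlap but nearly met, and the fold change of -0.26 (SE 0.22, edgeR adjusted p = 0.45) did not pass.

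The metallothionein genes lie side by side on chromosome 8, Mt2 (gene 17750) from 94172618 to 94173567 and Mt1 (gene 17748) from 94178883 to 94180327. Mt1 had 392, 452 and 514 CPM in un-diseased and 255, 304 and 347 CPM in diseased replicates 1, 2 and 3, without overlap. Its log2 fold change was -0.58 (SE 0.16, edgeR adjusted p = 0.0874), or 1.498 times higher in un-diseased samples, and -0.59 with the block (edgeR adjusted p = 0.00812). The Mt1 differences within replicates 1, 2 and 3 were almost equal, at -0.62, -0.57 and -0.57 on the log2 scale. Mt2 had 502, 804 and 857 CPM in un-diseased and 394, 475 and 523 CPM in diseased replicates, and the groups overlapped because un-diseased replicate 1 lay below diseased replicate 3. The Mt2 fold change was -0.64 (SE 0.22, edgeR adjusted p = 0.13), and -0.61 with the block (edgeR adjusted p = 0.0152), a call that was lost when both samples numbered 2 or both numbered 3 were left out. The ratio of Mt2 to Mt1 CPM averaged 1.58 ± 0.261 without and 1.54 ± 0.0309 with disease (SD, n = 3 each), and an exact two-sided permutation test gave p = 0.9 (0.9 adjusted over the 2 ratios). The longest run of bases that Mt1 and Mt2 transcripts of GENCODE M21 share is 20, below the read length of 150 bases. An antisense gene that the deposited table does not list, Gm45774, overlaps 432 exon bases of Mt2, and Keap1 and Gclm overlap unlisted genes on the opposite strand by 510 and 296 bases. Gclm also overlaps 244 exon bases of an unlisted pseudogene on its own strand, Gm6061, whose reads strand cannot separate. Whether the counting used strand is not given in the sources used here, so reads of the opposite-strand partners cannot be told apart from those of Mt2, Keap1 and Gclm.

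**Figure D3:**
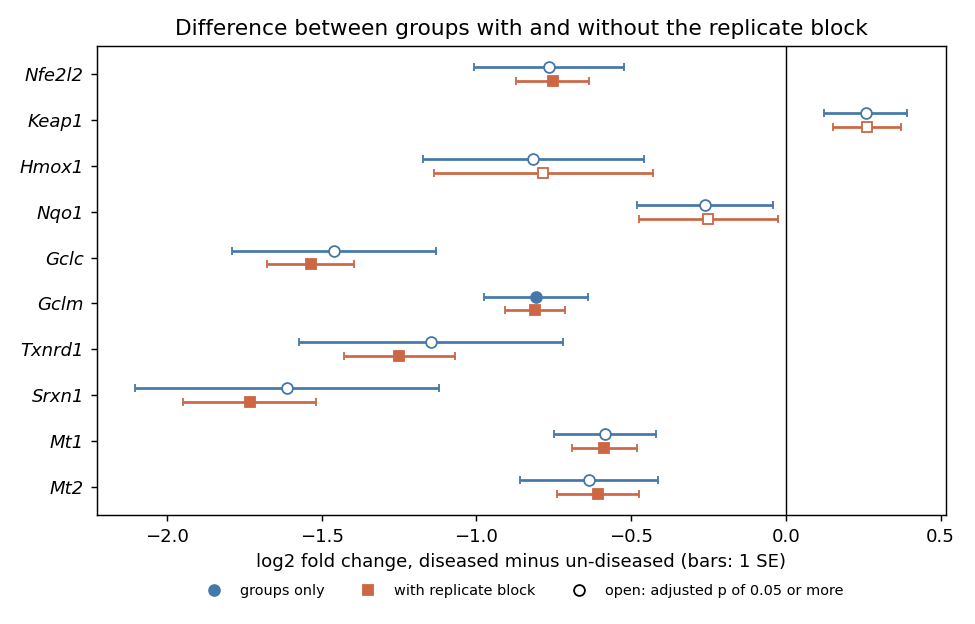
Log2 fold change (diseased minus un-diseased) of each of the 10 genes with bars of 1 SE, from the fit with groups only (circles) and with the replicate block (squares); filled symbols passed an adjusted p of 0.05. The positions barely move between the fits, while the bars of Gclc, Txnrd1 and Srxn1 shorten with the block.

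The size of the differences hardly changed between the 2 fits, and the standard errors did. That of Srxn1 went from 0.49 to 0.21, that of Txnrd1 from 0.43 to 0.18 and that of Gclc from 0.33 to 0.14, while that of Hmox1 stayed near 0.36. Of the 10 genes, 5 (Nqo1, Gclc, Gclm, Srxn1 and Mt1) had all diseased samples below all un-diseased ones, where 15.4% of all tested genes did and 31.9% were separate in either direction. Of the 10, 9 were lower in diseased samples in all 3 replicate numbers, against 30.1% of all tested genes. The authors' deposited table gave a q-value below 0.05 to 5 of the 10, each with the lower level in diseased samples: Gclc (0.000318), Gclm (0.00219), Mt1 (0.0136), Nfe2l2 (0.0315) and Txnrd1 (0.0392). A q-value below 0.05 with a lower level in diseased samples was given to 4.52% of all genes of the authors' deposited table, and a q-value below 0.05 in either direction to 7.81%.

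Compared per length (CPM per kilobase of the longest principal transcript in GENCODE M21), the un-diseased levels ran from Mt2 (1411 ± 375) and Mt1 (824 ± 112) through Hmox1 (508 ± 217), Srxn1 (169 ± 63.9), Txnrd1 (159.8 ± 50.4), Nfe2l2 (87.9 ± 23.1) and Gclc (33.1 ± 7.36) to Keap1 (7.46 ± 1.06), Gclm (6.44 ± 0.974) and Nqo1 (2.11 ± 0.338), as mean ± SD over 3 samples. The ranges of 1 SD met for Mt1 and Hmox1, for every pair among Srxn1, Txnrd1 and Nfe2l2, and for Keap1 and Gclm. In diseased samples those of Txnrd1 (72.2 ± 41.0), Srxn1 (55.4 ± 35.1) and Nfe2l2 (51.7 ± 12.1) met as well. Each SD is a spread between samples, and the order of genes within each sample was not tested. Gclc there was at 12.05 ± 5.90, near Keap1 at 8.92 ± 0.838, whereas their ranges of 1 SD were apart in un-diseased samples.

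The rest of the pathway was read from 9 further lists with 114 tested genes, of which 5 were called lower and 2 higher without the block (18 and 5 by DESeq2). With the replicate block 27 were lower and 10 higher, where 13.3% and 10.5% of all tested genes were. Their median log2 fold change was -0.04. The plot of the lists shows each gene, together with a list of glucocorticoid-responsive genes.

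**Figure D4:**
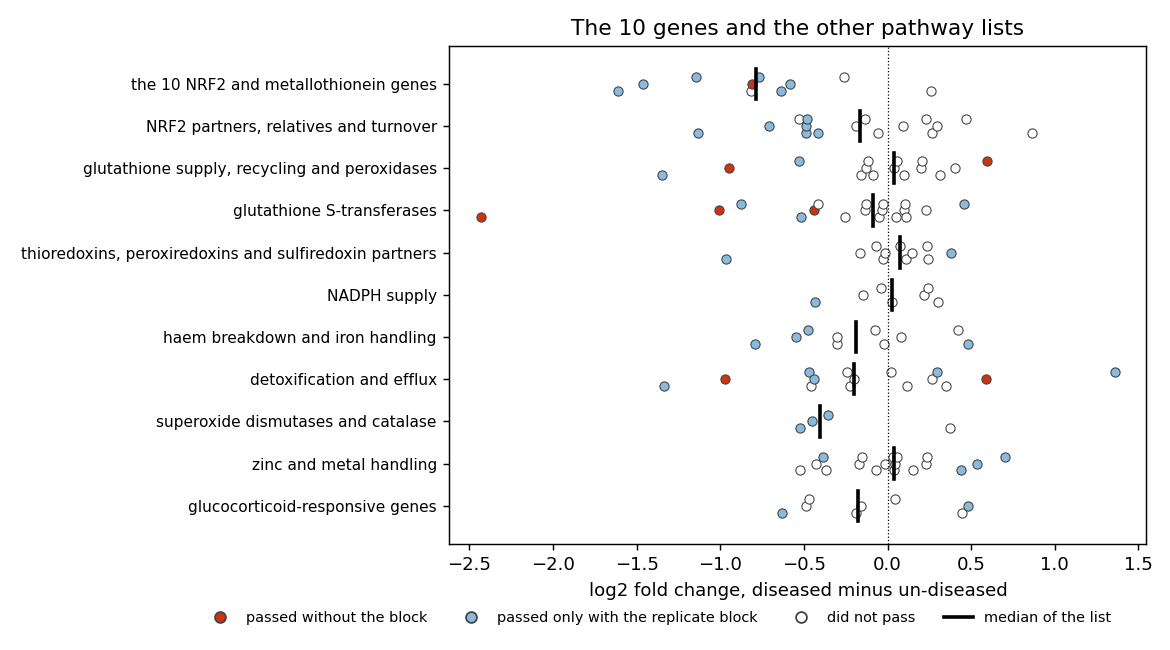
Log2 fold change (diseased minus un-diseased) of the 10 genes and of the tested genes of each other list; red points passed without the block, light blue points only with it, open points did not pass, and vertical bars are list medians. The median of the 10 genes is -0.79, and those of the other lists lie between -0.40 and 0.07.

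Of 16 partners, relatives and regulators of turnover of NRF2, 0 passed without the block (7 had an unadjusted edgeR p under 0.05, DESeq2 called 5 lower and limma-voom 0) and 6 were lower with it. Sqstm1, the autophagy receptor p62 that binds KEAP1, is the most abundant of them, with 2172, 1905 and 2108 CPM in un-diseased and 1086, 1731 and 1474 CPM in diseased replicates 1, 2 and 3. The Sqstm1 groups did not overlap, and its difference did not pass (log2 fold change -0.53, edgeR adjusted p = 0.144). The small MAF genes, whose proteins pair with NRF2, were chosen for mention after their values were seen. All 3 of them were lower with the block, Maff at -1.20, Mafk at -0.75 and Mafg at -0.49, with edgeR adjusted p of 0.00245, 0.00528 and 0.00951. Bach1, which encodes a repressor that competes with NRF2 for the same elements and was also chosen after its values were seen, was at -0.52 with the block (edgeR adjusted p = 0.0317).

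Of 15 further genes of glutathione supply, recycling and peroxidases 1 fell and 1 rose without the block (2 and 1 by DESeq2), and 3 were lower and 1 higher with it. Gpx3, the secreted glutathione peroxidase, fell from 960.4 ± 46.6 to 499 ± 48.0 CPM (log2 fold change -0.95, edgeR adjusted p = 0.0254), while Gpx8, a peroxidase of the endoplasmic reticulum, rose from 55.9 ± 4.35 to 84.4 ± 4.13 CPM (0.59, edgeR adjusted p = 0.0278; SD, n = 3 each). The other 13 tested genes of that list did not pass without the block. They included Slc7a11, the cystine transporter subunit and an NRF2 target, which had 17.7, 44.2 and 31.5 CPM in un-diseased and 16.4, 46.1 and 23.7 CPM in diseased replicates (-0.12, edgeR adjusted p = 0.876; chosen after its values were seen). Of 18 glutathione S-transferases 3 fell and 0 rose without the block (4 and 0 by DESeq2), and 5 were lower and 1 higher with it. The 3 calls became 0 on leaving out un-diseased replicate 2 or diseased replicate 3, 1 on leaving out un-diseased replicate 3, and 2 on leaving out diseased replicate 1 or 2. The 9 lists together had 7 calls, and this number went to 0 on leaving out un-diseased replicate 2 or diseased replicate 3, and to 1 to 3 on leaving out un-diseased replicate 3 or diseased replicate 1 or 2. On leaving out un-diseased replicate 1 the lists had 11 lower and 3 higher. Gstm1 fell from 124 ± 16.98 to 61.9 ± 1.80 CPM (log2 fold change -1.005), Mgst1 from 107 ± 4.94 to 79.1 ± 1.67 CPM (-0.44) and Gsta3 from 3.996 ± 0.786 to 0.729 ± 0.220 CPM (-2.43), with edgeR adjusted p of 0.0247, 0.0436 and 0.0247. Gsta3 and Gstm1 belong to families of related genes, and whether reads were shared within these families was not tested.

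Among 11 thioredoxins and peroxiredoxins 0 passed without the block (2 had an unadjusted edgeR p under 0.05, and DESeq2 and limma-voom each called 1 lower), and 1 was lower and 1 higher with it. Prdx1, a peroxiredoxin and the most abundant, was at 183 ± 16.4 against 203 ± 21.0 CPM (un-diseased against diseased). The median log2 fold change of this list was 0.07. Of 7 NADPH supply genes 0 passed without the block (4 had an unadjusted edgeR p under 0.05, DESeq2 called 1 lower and limma-voom 0) and 1 was lower with it. Of 10 further genes of haem breakdown and iron handling 0 passed without the block (4 had an unadjusted edgeR p under 0.05, DESeq2 called 1 lower and limma-voom 0), and 3 were lower and 1 higher with it. Pgd, a pentose phosphate enzyme, was at 121.5 ± 7.47 against 109.6 ± 5.91 CPM (un-diseased against diseased), and in the iron list Fth1, ferritin heavy chain, was at 1877 ± 196 against 1851 ± 272 CPM. Of 15 detoxification and efflux genes Aox1, aldehyde oxidase, fell from 63.2 ± 13.7 to 32.3 ± 3.76 CPM (edgeR adjusted p = 0.0344) and Ptgr1, a prostaglandin reductase, rose from 17.1 ± 1.57 to 25.7 ± 1.94 CPM (edgeR adjusted p = 0.0435). DESeq2 called 3 genes of this list lower and 2 higher, and with the block 4 were lower and 3 higher. Of the superoxide dismutases and catalase 0 of 4 passed without the block (3 had an unadjusted edgeR p under 0.05, DESeq2 called 1 lower and limma-voom 0) and 3 were lower with it. Sod3, the extracellular form, did not pass, at 423 ± 46.5 without and 549 ± 67.0 CPM with disease.

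Of 18 tested zinc and metal handling genes 8 had a negative and 10 a positive fold change. None passed without the block (6 had an unadjusted edgeR p under 0.05, DESeq2 called 2 higher and limma-voom 0), and 3 were higher and 1 lower with it. Slc39a14, a zinc and iron importer and the most abundant, was at 751 ± 186 against 715 ± 255 CPM (un-diseased against diseased). Of 8 glucocorticoid-responsive genes 0 passed without the block (3 had an unadjusted edgeR p under 0.05, DESeq2 called 1 higher and limma-voom 0), and 1 was lower and 1 higher with the block. Sgk1, the most abundant of these, had 418, 1317 and 1403 CPM in un-diseased and 509, 1212.5 and 545 CPM in diseased replicates 1, 2 and 3.

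Some genes tracked the 10 closely over the 6 samples. By Pearson's r of log2 CPM, the nearest to Nfe2l2 was Il17ra (r = 0.9997), a receptor chain for IL-17, which had 213 ± 63.8 CPM in un-diseased and 114 ± 30.5 CPM in diseased samples. Irak3 was the nearest to Gclm (0.997), Plaur to Txnrd1 (0.9998), Tuba1c to Srxn1 (0.998), Slc22a21 to Gclc (0.999) and Pgd to Hmox1 (0.986). Pcbp2 was the nearest to Mt1 (0.988) and Ktn1 to Mt2 (0.999). For Keap1 it was Fastk (0.9915), and for Nqo1 it was Nxt2 (0.9805). These are descriptions over 6 samples that fall into 2 groups, picked as the highest r among the tested genes with a mean of at least 10 CPM. The 10 genes themselves and unnamed gene models were left out of this search.

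The samples expressed fibroblast markers strongly. The summed level of 8 of them was 60550 to 86780 CPM in un-diseased and 81500 to 114900 CPM in diseased samples. Most of that sum was Col3a1, Col1a2 and Col1a1, whereas Dcn was lower in diseased samples (6657 ± 231 against 9624 ± 568 CPM, without overlap). Of the 8, 6 had a positive and 2 a negative fold change, and 0 passed without the block. DESeq2 called 4 higher and 1 lower, and 2 were higher with the block. The sum of 6 tendon cell markers was 5082 to 5829 and 7017 to 9706 CPM. Of these, Thbs4 and Fmod rose without the block (log2 fold changes 1.16 and 1.02, edgeR adjusted p = 0.0357 and 0.0392), and 4 of 6 were higher with it. Thbs4 was at 1895 ± 340 CPM in un-diseased and 4227 ± 805 CPM in diseased samples. Comp, the most abundant in un-diseased samples, went the other way, from 2895 ± 174 to 2589 ± 373 CPM. Its log2 fold change of -0.16 and that of Tnmd, 0.27, passed in neither fit. Macrophages, which express Hmox1, were also represented: the sum of 18 markers was 48.5 to 280 CPM in un-diseased and 211 to 566 CPM in diseased samples, and Fcgr1 was at 0 in 1 sample. Of these 18 markers 17 had a positive fold change (median 1.26), where that of Hmox1 was negative; 0 passed without the block (8 had an unadjusted edgeR p under 0.05, DESeq2 called 4 higher) and 17 were higher with it. Un-diseased replicate 1, with the highest Hmox1, had 126 CPM of macrophage markers, and diseased replicate 1, with the lowest Hmox1, had 388 CPM. Neutrophil markers (8 genes) summed to 4.46 to 120.3 CPM in un-diseased and 52.4 to 139 CPM in diseased samples, with Ly6g at 0 in some. All 6 that were tested had a positive fold change (median 1.23), of which 0 passed without the block (1 had an unadjusted edgeR p under 0.05, and DESeq2 and limma-voom called 0) and 3 were higher with it. Endothelial markers summed to 41.1 to 56.7 CPM in diseased and 56.3 to 82.1 CPM in un-diseased samples. Most of that sum was Tek (37.7 ± 5.28 against 63.6 ± 14.3 CPM), whereas Cdh5 was at 3.14 ± 1.121 against 1.42 ± 0.431 CPM and the median log2 fold change of the 5 tested markers was 0.25. The 6 adipocyte markers summed to 4.05 to 5.13 CPM in diseased and 5.70 to 9.80 CPM in un-diseased samples, with Plin1, Cidec and Lep at 0 in some. Only 2 of them, Pparg and Fabp4, had enough counts to be tested. Both had a negative fold change, 0 passed without the block and 1 was lower with it. The part of these cells in the results was not tested, and in bulk samples fewer cells of a type and less RNA per cell cannot be told apart. The libraries held 16720605 to 18290870 counts, in which a gene with no count could still be present at up to 0.147 to 0.188 CPM (3 counts, counting error only).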

How the data were processed

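The members and gene lists were chosen with earlier results of these data known. The deposited table holds the authors' estimated counts (RSEM-type expected counts, unnormalized) per gene and sample. It also holds the authors' log2 ratio of un-diseased over diseased, with a p-value and a q-value. The submitters' processing notes name HISAT2 (2.0.4), RSEM (1.3.1), DESeq2 (1.4.5) and the build GRCm38, without their roles. A share of 9.6% of the counts had decimals, and counts were rounded first.

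The filter was filterByExpr (least count 10) in edgeR (4.0.16, under R 4.3.3). TMM scaling and the quasi-likelihood test followed, with Benjamini-Hochberg adjustment over 13264 genes. Each SE of an edgeR fit was derived from that test, as the absolute log2 fold change divided by the square root of the F statistic. Alternatives were RLE and upper-quartile factors, looser and stricter filters, DESeq2 (1.42.0), limma-voom (3.58.1), a threshold of 0.01, leaving out each sample, and the replicate block. The edgeR, limma-voom and DESeq2 steps without the block were tested on simulated data with less spread between samples than here. The fit with the block was not tested in this way.

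Deviations from the group means correlated at 0.484, 0.580 and 0.274 between samples numbered 1, 2 and 3, against at most 0.139 between other numbers. This is a reading of the same data: the labels state no pairing, and the main comparison used none. Deviations in a group of 3 sum to 0, so a positive value for equal numbers goes with lower values for other numbers. The fits with the block treat the numbers, taken from the labels, as pairs.

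Genes named were the 10, then from each other list up to 3 called genes by smallest adjusted p (if none was called, the most abundant gene), and the genes with the highest r to each of the 10. Maff, Mafk, Mafg, Bach1 and Slc7a11 were named outside this rule, as were single cell type markers. Positions are from RefSeq (GRCm38.p6), which matched 17372 of 17419 identifiers.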

Additional observations from a re-analysis of the deposited data

How the results depend on the processing

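All 10 genes kept their direction in each of 16 alternative fits, 160 gene estimates in all. Called lower among the 10 were 0 genes at a threshold of 0.01, 2 with upper-quartile factors, 2 with genes of at least 1 count, 2 with limma-voom (Gclc beside Gclm in these 3), 6 with DESeq2 and 7 with the replicate block. Without single samples 0 to 4 were called, 4 of them without un-diseased replicate 1, 1 (Gclc) without diseased replicate 2 and 0 without any other. With the block and without both samples of a number, chosen after seeing the data, 6 to 7 were called: Nfe2l2, Gclc, Gclm, Txnrd1, Srxn1 and Mt1 each time, Mt2 only without number 1, and Hmox1 only without number 2. Over all genes 213 were higher and 282 lower; 2 and 2 at a threshold of 0.01, 417 and 288 with upper-quartile factors, 635 and 882 with DESeq2, 1397 and 1770 with the replicate block. Without single samples 2 to 354 were higher and 3 to 721 lower, and with the block and without both samples of a number 1013, 809 and 426 were higher and 1556, 1274 and 583 lower (numbers 1, 2 and 3). Upper-quartile factors moved the median log2 fold change of all genes from 0.02 to 0.10. With these factors the 7 genes called with the block ran from -1.541 (Srxn1) to -0.498 (Mt1). In the main fit these 2 ends were -1.611 and -0.58. Nqo1 had the lowest counts of the 10, 40 to 62 a sample; what depth limits was not tested. The cause of these shifts was not tested.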
